A study of Homo sapiens with 12 samples.

Results

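The genes of the unfolded protein response and the integrated stress response were followed in HepG2 cells, a line derived from a human hepatoma, treated with dexamethasone, with KLA or with both. The set holds 36 named genes of the 28256 gene symbols in the deposited table. They were chosen by symbol for their place in these pathways, with earlier results of these data known. For each symbol the transcript with the highest total over the 12 libraries stood for the gene. After low counts were removed, 34 of the 36 genes were tested, among 13166 genes in all. CHAC1 and DERL3 were too low to test.

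RNA was sequenced from 12 libraries, 3 in each of 4 groups. All cells carried the genotype labelled WT and spent 24 h in charcoal-stripped serum before 24 h of treatment. Dex cells received dexamethasone, a synthetic glucocorticoid, at 50 nM. KLA cells received an agent that the labels name only by these letters, at a dose labelled 100 ng/µl. DexKLA cells received both, and DMSO cells, the controls, received the vehicle at 0.1%. Whether DMSO was added to treated cells is not stated, and neither is whether replicates were separate cultures. The p-values therefore cover the spread between libraries alone, and that spread may be technical.

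The unfolded protein response adjusts the endoplasmic reticulum (ER) to its load of secreted and membrane proteins, a load that is high in hepatocytes, which secrete most plasma proteins. Its sensors are IRE1 (gene ERN1), which splices XBP1 mRNA, PERK (EIF2AK3), which phosphorylates the translation factor eIF2α, and ATF6, which is cut in the Golgi to release a transcription factor. XBP1 and ATF6 raise transcription of chaperones and of the machinery that returns misfolded proteins to the cytosol for degradation. Phosphorylated eIF2α slows translation in general while favouring that of ATF4, the transcription factor at the centre of the integrated stress response, which other kinases feed as well.

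The promoters of several ER chaperone genes carry a shared sequence, the ER stress response element (ERSE), and stretches that hold it or its relatives are shown because HSPA5, CALR and HERPUD1 are among the genes that fell. Promoter sequences (250 bases before each gene's start, RefSeq, GRCh38.p14) matched 33 of the 36 genes. PDIA3, DERL1 and DERL3 had no entry. Both strands were searched for ERSE (CCAAT and, after 9 bases of any kind, CCACG), for ERSE-II (ATTGG, 1 base of any kind, CCACG), for the C/EBP-ATF response element (CARE, TGATGNAA) and for the core of the unfolded protein response element (UPRE, TGACGTGG). ERSE was found in 6 of the 33 promoters, against 0.074% of all 35116 promoters in the table, and ERSE-II in 3, against 0.0513%. CARE was found in 4, against 3.14%, and the UPRE core in 1, that of HYOU1, against 0.612%, where it overlaps an ERSE-II match. The genes were chosen for their place in these pathways, so an excess over all promoters describes that choice and is not a test. A match describes letters and not a site in use. In the stretches below, written 5′ to 3′ along the gene's strand, capitals mark the matches.
HSPA5: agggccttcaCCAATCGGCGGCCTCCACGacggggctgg
CALR: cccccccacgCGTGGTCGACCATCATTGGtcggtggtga
XBP1: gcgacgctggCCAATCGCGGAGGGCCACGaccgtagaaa
HERPUD1: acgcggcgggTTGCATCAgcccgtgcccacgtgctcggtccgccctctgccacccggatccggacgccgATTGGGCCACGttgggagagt
HYOU1: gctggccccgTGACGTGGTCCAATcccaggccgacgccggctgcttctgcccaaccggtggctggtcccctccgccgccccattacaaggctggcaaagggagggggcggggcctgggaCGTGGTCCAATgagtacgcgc
ASNS: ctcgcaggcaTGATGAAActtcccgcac
The HSPA5 stretch lies at chr9:125241381-125241419, minus strand, the CALR stretch at chr19:12938374-12938412, plus strand, and the XBP1 stretch at chr22:28800593-28800631, minus strand, each with 1 ERSE. HERPUD1 (chr16:56931956-56932045, plus strand) holds a CARE followed by an ERSE-II. The HYOU1 stretch (chr11:119057264-119057403, minus strand) holds the UPRE core within its first marked run and an ERSE-II match in each run. ASNS (chr7:97872459-97872486, minus strand) holds 1 CARE. The other promoters with an ERSE were those of HSP90B1, CANX and CRELD2, that of SDF2L1 held an ERSE-II, and those of ATF3 and CHAC1 held a CARE. The RefSeq start of ATF3 lies 43354 bases from the start of the transcript counted here, and that of ASNS 134 bases.

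Total counts over genes ran from 3317740 (DMSO replicate 1) to 20933501 (KLA replicate 2). The 3 KLA libraries, Dex replicate 2 and DexKLA replicates 1 and 3 were the 6 deepest, and every DMSO library was among the 6 shallowest, so KLA and depth cannot be told apart when KLA is set against DMSO. DMSO replicate 1 lay at one end of the first principal component (-39.6) and KLA replicate 3 at the other (23.4), and values without them are given where they change a call. The 9 hepatocyte markers were all tested. Their summed level was 132183 to 138593 CPM (counts scaled to a common library size) in Dex, 123897 to 130809 in KLA, 119161 to 160918 in DexKLA and 93678 to 110719 in DMSO. In this sum, to which abundant markers add most, every treated library lay above every DMSO library. The single markers did not all rise: 4 of the 9 fitted changes were negative with Dex, 6 with KLA and 6 with DexKLA. Of 10 markers of other liver cells 3 were tested, CD68 among them. The summed level of all 10 was 72.1 to 87.0 CPM. MARCO was at 0 in all libraries, and PTPRC and DCN had at most 1 count in any. The sources used here do not say whether counting used strand, so reads of an overlapping gene cannot be told from those of the gene named. The counted transcripts of CANX, HYOU1, SESN2 and DERL3 are annotated at 2 loci each, so their reads cannot be assigned to 1 of them. The 36 genes together held 0.673% to 0.785% of raw counts in the Dex, KLA and DexKLA libraries and 0.836% to 0.893% in the DMSO libraries. By raw counts every treated library thus lay below every DMSO library. The levels given below are instead TMM-scaled, with factors of 1.04 to 1.07 in DMSO and 0.944 to 1.05 in treated libraries. On that scale the order of the libraries can differ, and the groups need not be apart. The part of the marker level in the results below was not tested.

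Of the 8 genes that passed the test in at least 1 comparison, 6 were lower after treatment. Of these, 3 are genes of protein folding and 3 of ER-associated degradation. With Dex, KLA and DexKLA, 2.94%, 14.7% and 11.8% of the 34 were called, against 2.05%, 13.7% and 4.22% of all genes. Without DMSO replicate 1 none of the 34 was called in these 3 comparisons. The 4 transcription factors and 5 tested targets of the integrated stress response among the 36 were not called in any comparison. Of 29 other tested genes of that response, 4 were called with KLA, 1 higher and 3 lower. The median log2 change of the 29 with KLA was -0.14, as for the 34. Calls required an adjusted p below 0.05 (edgeR quasi-likelihood F test, Benjamini-Hochberg adjusted over the 13166 genes). HSPA5, the central ER chaperone, fell with KLA and with DexKLA, CALR and TXNDC5 with DexKLA, HERPUD1 and SYVN1 with KLA, and EDEM1 with Dex and with KLA. DERL2 rose with KLA and ATF6 with DexKLA. The changes were modest, between -0.57 and 0.53 on the log2 scale. Without DexKLA replicate 3, 9 genes were called with KLA in place of 5, CALR, CANX, SEC61B and SEL1L being added (adjusted p = 0.0287 to 0.0466), and TXNDC5 and ATF6 were called with Dex besides EDEM1 (adjusted p = 0.0378 and 0.0228, edgeR).

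In Dex versus DMSO 1 of the 34 genes was called, against 2.05% of all genes tested; 0 were higher, against 1.22%, and 1 was lower, against 0.835%. The median log2 change of the 34 was -0.10, against -0.01 over all tested genes, and 21 were negative. In KLA versus DMSO 5 were called, 14.7% of the 34, close to the 13.7% of all genes that were called. Of these 1 was higher, against 7.78% of all genes, and 4 were lower, against 5.94%. The median was -0.14 against -0.02, and 27 were negative. In DexKLA versus DMSO 4 were called, 11.8% of the 34, against 4.22% of all genes. Of these 1 was higher, against 2.84%, and 3 were lower, against 1.38%. The median was -0.17 against -0.02, and 26 were negative. These 3 comparisons share the DMSO libraries.

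Genes were also counted whose libraries did not overlap between groups. With Dex all 3 libraries lay below all 3 DMSO libraries for 10 of the 34 genes and above them for 1, against 13.6% and 14.5% of all genes. With KLA 11 lay below and 3 above, against 18.3% and 17.9%. With DexKLA 16 lay below and 3 above, against 12.8% and 13.4%. HSPA5, CALR, CANX, XBP1, SEL1L, EDEM1 and TXNDC5 lay below DMSO in all 3 comparisons. DERL2 and SEC61B lay above DMSO in the 2 comparisons with KLA, and ATF6 in the 2 with Dex.

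**Figure D1:**
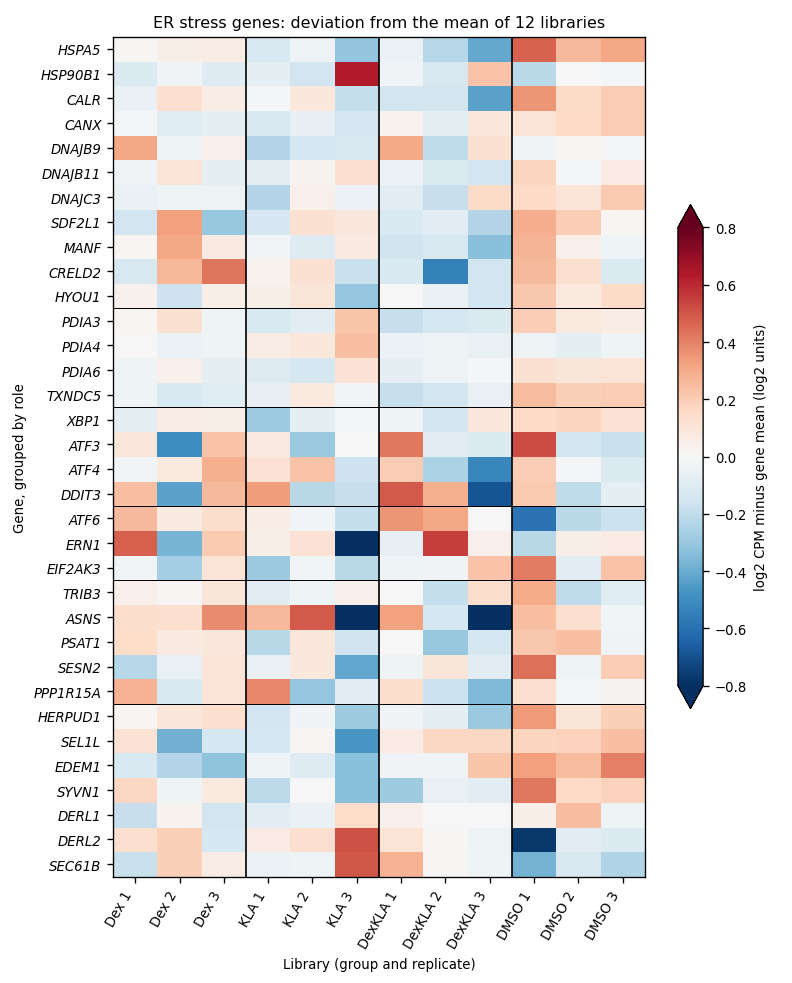
Deviation of each library's log2 CPM from the gene's mean over 12 libraries (colour, log2 units) for the 34 tested genes, in rows grouped by role, with Dex, KLA, DexKLA and DMSO libraries from left to right. The DMSO columns are above the mean for HSPA5, CALR, TXNDC5 and EDEM1, and below it for ATF6; ASNS is lowest in KLA replicate 3 and DexKLA replicate 3.

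**Figure D2:**
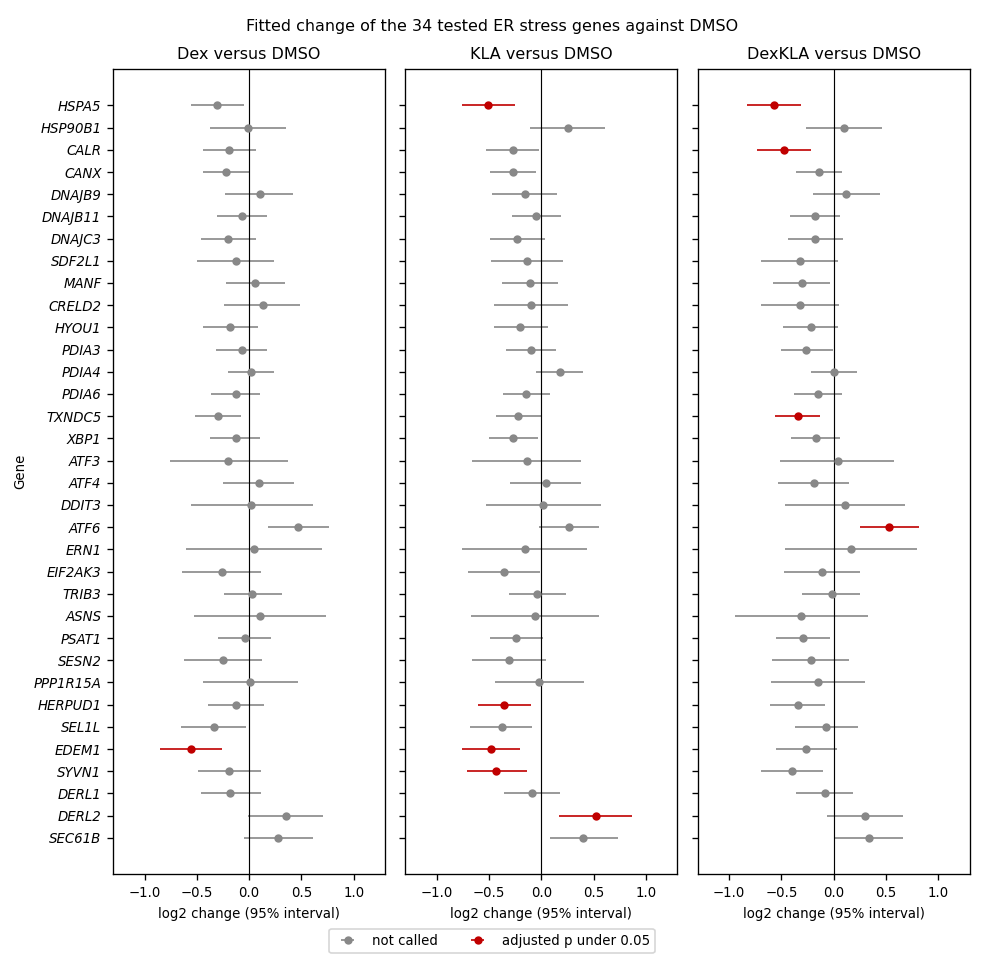
Fitted log2 change against DMSO (points) with 95% intervals (lines) for the 34 tested genes with Dex, KLA and DexKLA, from left to right; red marks an adjusted p under 0.05. Called changes are EDEM1 with Dex, 5 genes with KLA and 4 with DexKLA.

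The levels spanned a wide range. Per kilobase of transcript, which allows genes to be compared, HSP90B1 stood highest in DMSO cells at 443 ± 36.7 CPM per kilobase (SD, n = 3), followed by CALR at 426 ± 31.2, PDIA4 at 301 ± 3.9, ATF4 at 269.6 ± 30.2, PDIA6 at 255 ± 1.78 and HSPA5 at 210.2 ± 16.6. HSP90B1 and CALR did not differ beyond their spread, nor did ATF4 and PDIA6. The sensor ERN1 was lowest among the tested genes at 1.14 ± 0.123 CPM per kilobase, below ATF3 at 4.49 ± 1.33 and EIF2AK3 at 5.28 ± 0.897.

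Among the 11 ER chaperones and cofactors, HSPA5 and CALR were the 2 called. HSPA5 (BiP), the abundant Hsp70 of the ER that also holds the sensors inactive (chromosome 9, 125234853 to 125241343, minus strand, hg38), measured 650.1, 668 and 674 CPM in Dex replicates 1 to 3, 590.2, 627 and 519 in KLA, 624, 552 and 486 in DexKLA and 895, 772 and 799 in DMSO. Every treated library lay below every DMSO library, and DexKLA replicate 3 was the lowest. The log2 change was -0.51 ± 0.11, adjusted p = 0.0109 with KLA and -0.57 ± 0.11, adjusted p = 0.00838 with DexKLA (edgeR quasi-likelihood F test, Benjamini-Hochberg adjusted). With Dex alone it was -0.31 ± 0.11, adjusted p = 0.127 (same test), and the gene was not called. Without DMSO replicate 1, the highest of the 12, both calls ended (-0.44, adjusted p = 0.0743 with KLA and -0.51, adjusted p = 0.0731 with DexKLA, edgeR), and the KLA call also ended with the depth class of the libraries as a covariate (adjusted p = 0.169). Among the 6 shallowest libraries alone, HSPA5 stood at 662 CPM in 2 Dex libraries and 552 in 1 DexKLA library, against 822 in the 3 DMSO libraries, and no KLA library was among them. In bulk RNA, fewer cells of a type and less RNA per cell cannot be told apart.

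CALR (calreticulin), a lectin chaperone and calcium store of the ER lumen (chromosome 19, 12938600 to 12944490, plus strand), measured 663, 752 and 716 CPM in Dex replicates 1 to 3, 679.8, 726 and 602 in KLA, 618, 620.3 and 509 in DexKLA and 875, 761 and 789 in DMSO. The DexKLA libraries lay below those with Dex or KLA except for KLA replicate 3, and all treated libraries lay below DMSO. CALR fell with DexKLA (log2 -0.47 ± 0.11, adjusted p = 0.024, edgeR) and was not called with KLA (-0.27 ± 0.11, adjusted p = 0.0986) or Dex (-0.19 ± 0.11, adjusted p = 0.348, both edgeR). Its call with DexKLA was lost without DMSO replicate 1, DMSO replicate 3, DexKLA replicate 1 or DexKLA replicate 2 (log2 -0.52 to -0.41, adjusted p = 0.0528 to 0.166, edgeR), and with the depth class of the libraries as a covariate (adjusted p = 0.0949). The antisense gene AC092069.1 shares 10.0% of CALR's exonic bases.

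The other 9 chaperones and cofactors were not called in any of the 8 comparisons. HSP90B1 (GRP94), the Hsp90 of the ER, measured 1188, 1263 and 1198 CPM in Dex replicates 1 to 3, 1219, 1156 and 2001 in KLA, 1259, 1179 and 1505 in DexKLA and 1106, 1291 and 1270.4 in DMSO. The value of KLA replicate 3 stood above the other 11 libraries, which lay between 1106 and 1505 CPM. CANX (calnexin), the membrane-bound partner of calreticulin, ranged over 527 to 560.2 CPM in Dex, 514 to 539 in KLA, 536 to 599 in DexKLA and 609 to 649 in DMSO, and the groups with Dex or KLA did not overlap DMSO. HYOU1 (GRP170), which exchanges the nucleotide of HSPA5, ranged over 273 to 316 CPM in Dex, 247 to 327 in KLA, 275 to 306 in DexKLA and 324 to 355 in DMSO.

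The J-domain cofactors deliver clients to HSPA5. DNAJB11 (ERdj3) ranged over 89.3 to 101 CPM in Dex, 88.8 to 103 in KLA, 84.1 to 90.8 in DexKLA and 93.1 to 106 in DMSO. DNAJC3 (p58IPK) ranged over 56.8 to 57.6 CPM in Dex, 50.2 to 60.7 in KLA, 52 to 65.7 in DexKLA and 63.3 to 68.1 in DMSO. DNAJB9 (ERdj4) ranged over 27.1 to 34.4 CPM in Dex, 23.6 to 25.4 in KLA, 24.1 to 34.3 in DexKLA and 27.3 to 28 in DMSO. The DexKLA libraries lay below DMSO without overlap for DNAJB11, and overlapped DMSO for DNAJC3 and DNAJB9. SDF2L1, a partner of DNAJB11, lay at 18.5 to 28.7 CPM in Dex, 20.8 to 24.8 in KLA, 19.4 to 21.4 in DexKLA and 23.1 to 27.9 in DMSO. MANF, a small secreted ER protein that binds HSPA5, lay at 51 to 62.5 CPM in Dex, 46.9 to 53.1 in KLA, 40 to 46.2 in DexKLA and 49.3 to 60.8 in DMSO, and its log2 change with DexKLA was -0.30 ± 0.12, adjusted p = 0.147 (edgeR). CRELD2, an ER stress-inducible secreted protein, lay at 21.6 to 31.7 CPM in Dex, 20.8 to 25.6 in KLA, 16.2 to 21.7 in DexKLA and 21.8 to 28.2 in DMSO. The last 3 lay below DMSO in every DexKLA library. Fitted changes of these 9 genes ran from -0.32 to 0.25 over the 3 comparisons with DMSO. The median of all 11 chaperones and cofactors was -0.13 with Dex, -0.16 with KLA and -0.22 with DexKLA.

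Of the 4 disulfide isomerases, which form and rearrange disulfide bonds, TXNDC5 was the 1 called. TXNDC5 (chromosome 6, 7881519 to 7910788, minus strand) measured 404, 381 and 388 CPM in Dex replicates 1 to 3, 395, 437 and 407 in KLA, 364, 374 and 396 in DexKLA and 493, 472 and 476 in DMSO. All 9 treated libraries lay below all 3 DMSO libraries, which were close to each other. It fell with DexKLA (log2 -0.34 ± 0.09, adjusted p = 0.0423, edgeR), while with Dex the change was -0.30 ± 0.09, adjusted p = 0.0857 and with KLA -0.22 ± 0.09, adjusted p = 0.117 (edgeR), neither called. The call was lost without any 1 of 10 libraries, those other than KLA replicate 3 and DexKLA replicate 3, at nearly the same size (log2 -0.36 to -0.32, adjusted p = 0.0503 to 0.187, edgeR). It was also lost without a filter on low counts, with depth class as a covariate and with the 6 libraries of the comparison alone (adjusted p = 0.0682 to 0.163, edgeR). Its exons share 61.0% of their bases with the readthrough gene BLOC1S5-TXNDC5, whose reads cannot be told apart.

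PDIA4 ranged over 830.2 to 853 CPM in Dex, 891 to 1011 in KLA, 822 to 832 in DexKLA and 816 to 836 in DMSO. Its KLA libraries lay above DMSO without overlap, and the change was not called (log2 0.18 ± 0.10, adjusted p = 0.215, edgeR). PDIA6, whose exons share 42.0% of their bases with ATP6V1C2, ranged over 508 to 549 CPM in Dex, 486 to 579.5 in KLA, 509 to 530.0 in DexKLA and 573 to 581 in DMSO. PDIA3 (ERp57), the isomerase that works with calreticulin and calnexin, ranged over 177 to 197 CPM in Dex, 166 to 211 in KLA, 159 to 167 in DexKLA and 189 to 208 in DMSO, and ELL3 shares 15% of its exonic bases. Neither was called.

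**Figure D3:**
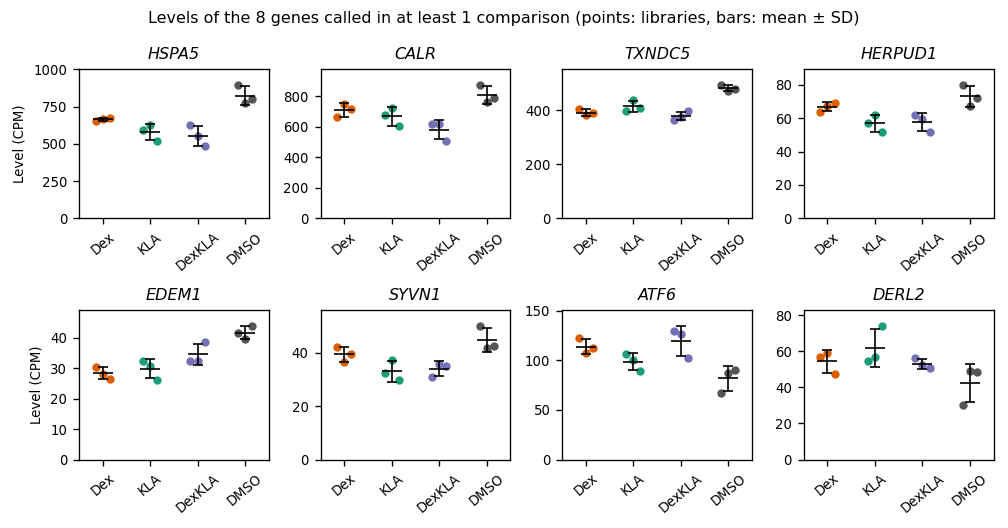
Level (CPM) in each library (points) with mean and SD (bars, n = 3) of the 8 genes called in at least 1 comparison, with Dex, KLA and DexKLA to the left of DMSO in each panel. HSPA5, CALR, TXNDC5 and EDEM1 lie below DMSO in all treated libraries, and DERL2 is lowest in DMSO replicate 1.

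ATF6 was the 1 sensor called, and it was higher. ATF6 (chromosome 1, 161766320 to 161964070, plus strand) measured 122, 107 and 113 CPM in Dex replicates 1 to 3, 106, 101 and 89.3 in KLA, 130.0, 126 and 102 in DexKLA and 67.6, 87.7 and 90.4 in DMSO. The 6 libraries with Dex, alone or with KLA, lay above all 3 DMSO libraries, and KLA replicate 3 lay among the DMSO values. It rose with DexKLA (log2 0.53 ± 0.12, adjusted p = 0.0236, edgeR), and the effect of Dex averaged over cells with and without KLA was 0.37 ± 0.09, adjusted p = 0.0279 (edgeR), the only call among the 34 genes in that comparison, where 1.51% of all genes were called and 0.873% were called higher. With Dex alone the change was 0.47 ± 0.13, adjusted p = 0.0533, and with KLA 0.26 ± 0.12, adjusted p = 0.146 (edgeR), neither called. The Dex change was called without KLA replicate 3 (0.46, adjusted p = 0.0201) or DexKLA replicate 3 (0.47, adjusted p = 0.0228, edgeR). The DexKLA call was lost without DMSO replicate 1 (0.42, adjusted p = 0.181), DexKLA replicate 1 (0.47, adjusted p = 0.13) or DexKLA replicate 2 (0.50, adjusted p = 0.107, all edgeR). The mean Dex call was lost without DMSO replicate 1, Dex replicate 1 or 3, KLA replicate 2, or DexKLA replicate 1 or 2 (log2 0.31 to 0.38, adjusted p = 0.0556 to 0.103, edgeR), and with scaling by library size alone (adjusted p = 0.0511).

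The other sensors were low and not called. ERN1 (IRE1) ranged over 7.11 to 12.8 CPM in Dex, 4.91 to 9.95 in KLA, 8.79 to 13.5 in DexKLA and 7.88 to 9.6 in DMSO, and its log2 change had wide intervals (0.05, 95% interval -0.60 to 0.70 with Dex, -0.16, 95% interval -0.76 to 0.44 with KLA and 0.17, 95% interval -0.46 to 0.80 with DexKLA). EIF2AK3 (PERK) ranged over 17.3 to 22.4 CPM in Dex, 16.9 to 20.5 in KLA, 20.3 to 24.4 in DexKLA and 19.6 to 27.6 in DMSO, with a log2 change of -0.36, 95% interval -0.70 to -0.01 with KLA, adjusted p = 0.111 (edgeR). The antisense gene AC104134.1 shares 14.7% of its exonic bases.

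None of the 4 transcription factors was called in any comparison. XBP1, the factor made active by the splicing of its mRNA by IRE1 (chromosome 22, 28794560 to 28800572, minus strand), measured 175, 191 and 190.0 CPM in Dex replicates 1 to 3, 150.4, 174 and 183 in KLA, 179.9, 165 and 195 in DexKLA and 205, 207 and 199 in DMSO. All treated libraries lay below DMSO, within a narrow range, with a log2 change of -0.13 ± 0.10, adjusted p = 0.482 for Dex, -0.27 ± 0.10, adjusted p = 0.0795 for KLA and -0.17 ± 0.10, adjusted p = 0.339 for DexKLA (edgeR). The 2 transcripts listed for XBP1 held totals of 21492.5 and 21383.0 over the 12 libraries. Nearly all reads were thus counted for both, and these counts do not measure splicing.

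ATF4, the main effector of the integrated stress response (chromosome 22, 39520559 to 39522686, plus strand), measured 526, 564 and 650.1 CPM in Dex replicates 1 to 3, 579, 625 and 476 in KLA, 614, 448 and 372 in DexKLA and 612, 531 and 493 in DMSO. The groups overlapped, and the lowest value was in DexKLA replicate 3. Its log2 change was 0.09, 95% interval -0.25 to 0.43 with Dex, 0.04, 95% interval -0.30 to 0.38 with KLA and -0.19, 95% interval -0.53 to 0.15 with DexKLA. ATF4 is regulated mainly at translation, which mRNA counts do not measure.

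DDIT3 (CHOP), the proapoptotic factor induced by ATF4 (chromosome 12, 57516588 to 57520517, minus strand), measured 31, 19.5 and 31.5 CPM in Dex replicates 1 to 3, 33.1, 22.5 and 23.1 in KLA, 36.9, 32 and 16.3 in DexKLA and 30.4, 22.8 and 24.9 in DMSO. Its groups overlapped fully, and DexKLA held both the highest and the lowest library. The log2 change was 0.02, 95% interval -0.56 to 0.61 with Dex, 0.02, 95% interval -0.53 to 0.57 with KLA and 0.11, 95% interval -0.46 to 0.68 with DexKLA. The exons of MARS share 30.1% of DDIT3's exonic bases on the opposite strand.

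ATF3, a stress-induced repressor and activator of the same family (chromosome 1, 212608761 to 212620774, plus strand), was low and measured 9.98, 6.65 and 11 CPM in Dex replicates 1 to 3, 9.87, 7.63 and 9.38 in KLA, 12.6, 8.82 and 8.72 in DexKLA and 13.5, 8.43 and 8.29 in DMSO. The groups overlapped, with DMSO replicate 1 the highest. The log2 change was -0.20, 95% interval -0.76 to 0.37 with Dex, -0.14, 95% interval -0.66 to 0.38 with KLA and 0.04, 95% interval -0.51 to 0.58 with DexKLA.

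The 5 tested targets of ATF4 and CHOP were not called either. TRIB3, a pseudokinase induced by CHOP (chromosome 20, 380629 to 397559, plus strand), measured 291, 285 and 303 CPM in Dex replicates 1 to 3, 267, 277 and 292 in KLA, 284, 248 and 312 in DexKLA and 348, 246 and 265 in DMSO. All 9 treated libraries lay within the DMSO range, of which DMSO replicate 1 was the top. Its log2 change had narrow intervals around 0 (0.03, 95% interval -0.24 to 0.31 with Dex, -0.04, 95% interval -0.31 to 0.24 with KLA and -0.02, 95% interval -0.30 to 0.25 with DexKLA).

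ASNS (asparagine synthetase; chromosome 7, 97852117 to 97872542, minus strand) measured 85.4, 84.6 and 101 CPM in Dex replicates 1 to 3, 92.7, 109 and 40.6 in KLA, 96.7, 70.1 and 38.5 in DexKLA and 91.2, 85 and 76.2 in DMSO. KLA replicate 3 and DexKLA replicate 3 held less than the other 10 libraries, which lay between 70.1 and 109 CPM, and ATF4 was at its lowest in DexKLA replicate 3 as well. Its log2 change was 0.10, 95% interval -0.53 to 0.73 with Dex, -0.06, 95% interval -0.67 to 0.55 with KLA and -0.31, 95% interval -0.94 to 0.33 with DexKLA. The noncoding AC079781.5 shares 44.6% of its exonic bases.

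PSAT1, an enzyme of serine synthesis, ranged over 171 to 181 CPM in Dex, 139.6 to 173 in KLA, 132 to 162 in DexKLA and 159.8 to 192 in DMSO, and its log2 change with DexKLA was -0.29 ± 0.11, adjusted p = 0.141 (edgeR). SESN2 (sestrin 2), a stress-induced inhibitor of mTORC1, ranged over 18.9 to 23.8 CPM in Dex, 16.6 to 23.5 in KLA, 20.9 to 23.7 in DexKLA and 21.5 to 30.1 in DMSO. PPP1R15A (GADD34), which directs a phosphatase to eIF2α, ranged over 14.6 to 19.4 CPM in Dex, 12.9 to 20.9 in KLA, 12.5 to 17.6 in DexKLA and 15.8 to 17.5 in DMSO. CHAC1, a glutathione-degrading enzyme and a sensitive reporter of ATF4 activity, had 0 to 2 counts per library. A count of 0 allows up to 0.143 CPM in the deepest library and 0.904 CPM in the shallowest (3 counts of the library's total, counting error only).

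**Figure D4:**
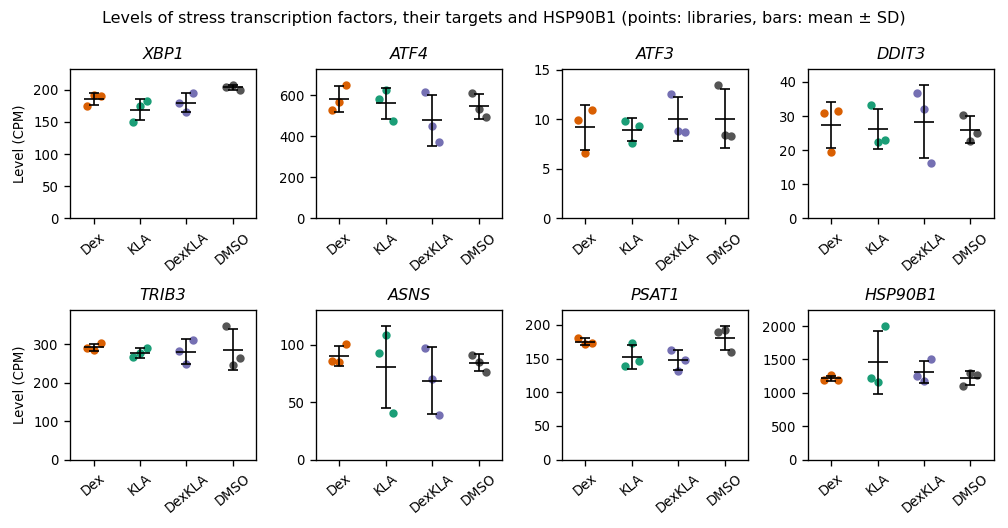
Level (CPM) in each library (points) with mean and SD (bars, n = 3) of 4 transcription factors, 3 targets and HSP90B1, with Dex, KLA and DexKLA to the left of DMSO. Each treated group overlaps DMSO except for XBP1, whose treated libraries all lie below DMSO. HSP90B1 is highest in KLA replicate 3, and ASNS is lowest in KLA replicate 3 and DexKLA replicate 3.

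Of 7 tested genes of ER-associated degradation and the translocon, 4 were called with KLA (1 higher and 3 lower), against 13.7% of all genes, 1 was called with Dex, against 2.05%, and 0 with DexKLA, against 4.22%. Of 13 other degradation genes outside the 36, 1 was called with KLA, lower, and 0 with Dex or DexKLA (edgeR), with median log2 changes of -0.03 with Dex, -0.11 with KLA and -0.05 with DexKLA. EDEM1, which recognises trimmed mannose on misfolded glycoproteins (chromosome 3, 5187707 to 5219958, plus strand), measured 30.5, 28.2 and 26.6 CPM in Dex replicates 1 to 3, 32.4, 30.9 and 26.3 in KLA, 32.5, 32.5 and 38.7 in DexKLA and 41.7, 39.6 and 43.9 in DMSO. All treated libraries lay below DMSO, and DexKLA replicate 3 came closest to it. EDEM1 fell with Dex (log2 -0.56 ± 0.13, adjusted p = 0.0271) and with KLA (-0.48 ± 0.12, adjusted p = 0.0167, both edgeR), and with DexKLA the change was -0.26 ± 0.13, adjusted p = 0.233 (edgeR), not called. The Dex call was lost without any 1 of the DMSO libraries or Dex replicate 2 or 3 (log2 -0.59 to -0.52, adjusted p = 0.0625 to 0.158), and the KLA call without DMSO replicate 1, DMSO replicate 3 or KLA replicate 3 (log2 -0.48 to -0.40, adjusted p = 0.0597 to 0.075, edgeR). Both were lost with the length trend removed, with depth class as a covariate and after thinning to the shallowest library (adjusted p = 0.0547 to 0.0737 with Dex and adjusted p = 0.0581 to 0.181 with KLA, edgeR). Among the 6 shallowest libraries EDEM1 stood at 28.6 CPM in 2 Dex libraries and 32.5 in 1 DexKLA library, against 41.7 in the 3 DMSO libraries. The antisense gene AC026202.3 shares 8.84% of its exonic bases.

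SYVN1 (HRD1), the ubiquitin ligase of the pathway (chromosome 11, 65127279 to 65134519, minus strand), measured 42.1, 36.6 and 39.6 CPM in Dex replicates 1 to 3, 32.4, 37.5 and 29.7 in KLA, 30.8, 36 and 35.2 in DexKLA and 50.1, 41.8 and 42.6 in DMSO. KLA and DexKLA lay below DMSO, while Dex replicate 1 overlapped it. SYVN1 fell with KLA (log2 -0.43 ± 0.12, adjusted p = 0.0281) and was not called with DexKLA (-0.40 ± 0.13, adjusted p = 0.0771) or Dex (-0.19 ± 0.13, adjusted p = 0.411, all edgeR). The KLA call was lost without any 1 of the DMSO libraries or KLA replicate 1 or 3 (log2 -0.47 to -0.34, adjusted p = 0.0503 to 0.137, edgeR), and with depth class as a covariate, after thinning or with 6 libraries alone (adjusted p = 0.0528 to 0.437). With DexKLA the gene was called without KLA replicate 3 (-0.39, adjusted p = 0.0421, edgeR). MRPL49 shares 1.83% of its exonic bases.

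HERPUD1, a membrane protein that assembles the ligase complex (chromosome 16, 56932142 to 56944864, plus strand), measured 63.8, 67.3 and 69.1 CPM in Dex replicates 1 to 3, 56.9, 62 and 51.8 in KLA, 61.9, 59.7 and 51.5 in DexKLA and 80, 67.5 and 72.2 in DMSO. The KLA and DexKLA libraries lay below DMSO, and Dex replicate 3 overlapped it. HERPUD1 fell with KLA (log2 -0.36 ± 0.11, adjusted p = 0.036), and the change was -0.34 ± 0.11, adjusted p = 0.0843 with DexKLA and -0.13 ± 0.11, adjusted p = 0.557 with Dex (all edgeR). The KLA call was lost without any 1 of the DMSO libraries, Dex replicate 3 or KLA replicate 1 or 3 (log2 -0.42 to -0.29, adjusted p = 0.0522 to 0.153, edgeR), and without a filter, with depth class as a covariate, after thinning or with 6 libraries alone (adjusted p = 0.0536 to 0.321). With DexKLA the gene was called without KLA replicate 3 (-0.34, adjusted p = 0.0478, edgeR).

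DERL2, a derlin of the channel through which proteins leave the ER (chromosome 17, 5471255 to 5486178, minus strand), measured 56.8, 59.2 and 47.1 CPM in Dex replicates 1 to 3, 54.3, 57 and 73.9 in KLA, 56, 52.2 and 50.5 in DexKLA and 30.4, 48.8 and 48.2 in DMSO. The KLA libraries lay above DMSO, with KLA replicate 3 the highest library and DMSO replicate 1 the lowest of all. DERL2 rose with KLA (log2 0.52 ± 0.15, adjusted p = 0.0279) and was not called with DexKLA (0.30 ± 0.16, adjusted p = 0.271) or Dex (0.35 ± 0.16, adjusted p = 0.215, all edgeR). Its call was lost without DMSO replicate 1 (0.35, adjusted p = 0.162) or KLA replicate 3 (0.37, adjusted p = 0.109, edgeR), and with scaling by library size alone, depth class as a covariate or 6 libraries alone (adjusted p = 0.0525 to 0.351).

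SEL1L, the scaffold of the HRD1 ligase, ranged over 56 to 79.3 CPM in Dex, 53 to 73.8 in KLA, 76.6 to 81.9 in DexKLA and 82.2 to 86.4 in DMSO. It lay just outside the threshold with KLA (log2 -0.38 ± 0.13, adjusted p = 0.0509, edgeR), and was called without Dex replicate 1, Dex replicate 2, KLA replicate 2 or DexKLA replicate 3 (adjusted p = 0.0245 to 0.0459, edgeR). SEC61B, a subunit of the translocon through which new proteins enter the ER, ranged over 118 to 152 CPM in Dex, 129 to 188 in KLA, 130.1 to 162 in DexKLA and 103 to 122 in DMSO, with a log2 change of 0.40 ± 0.14, adjusted p = 0.0548 with KLA (edgeR), called without KLA replicate 1, KLA replicate 2 or DexKLA replicate 3 (adjusted p = 0.0305 to 0.0466, edgeR). DERL1 ranged over 34.4 to 39.9 CPM in Dex, 36.8 to 43.3 in KLA, 38.9 to 40.2 in DexKLA and 38 to 46.3 in DMSO and was not called. DERL3 had 0 to 6 counts per library, and SMARCB1 shares 79.6% of its exonic bases.

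The 2 treatments were also compared with their combination. In DexKLA versus KLA, the effect of Dex in the presence of KLA, none of the 34 genes was called. An unadjusted p under 0.05 was found for 3 of the 34 (DNAJB9, ATF6 and SEL1L) and for 1385 of all 13166 genes (edgeR). DESeq2 called 0 of the 34 and 116 of all genes. Of all genes 0.653% were called. DexKLA and KLA libraries did not overlap for 2 genes above (SEL1L and EDEM1) and 2 below (PDIA4 and MANF), against 8.1% and 7.16% of all genes. In DexKLA versus Dex, the effect of KLA in the presence of Dex, none was called among the 34 or among all genes (0%), 7 of the 34 and 935 of all genes had an unadjusted p under 0.05 (edgeR), and DESeq2 called 0. Here 1 gene lay above without overlap (EDEM1) and 7 below, against 6.4% and 6.31% of all genes.

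HSPA5, CALR and MANF were among the 7, with log2 changes of -0.26, 95% interval -0.52 to -0.01, -0.29, 95% interval -0.54 to -0.03 and -0.36, 95% interval -0.64 to -0.09 in DexKLA relative to Dex. The effect of KLA averaged over cells with and without Dex gave 0 calls among the 34 and among all genes (0%, edgeR). An unadjusted p under 0.05 was found for 10 of the 34 and for 2532 of all 13166 genes (edgeR). DESeq2 called 5 of the 34 and 618 of all genes. Its largest change was that of HSPA5 (log2 -0.38 ± 0.08, adjusted p = 0.0757, edgeR). For the interaction, the difference between the Dex effects with and without KLA, 0 of the 34 genes were called against 0.038% of all genes (edgeR). An unadjusted p under 0.05 was found for 5 of the 34 and for 2922 of all 13166 genes (edgeR). DESeq2 called 3 of the 34 and 705 of all genes. EDEM1 was nearest to the threshold (log2 0.78 ± 0.18, adjusted p = 0.0544), followed by SEL1L (0.65 ± 0.18, adjusted p = 0.0659, edgeR). Both were called without Dex replicate 1, KLA replicate 2 or DexKLA replicate 1 (adjusted p = 0.0274 to 0.0477, edgeR). For EDEM1 the change was 0.22 ± 0.12 in DexKLA versus KLA and -0.56 ± 0.13 in Dex versus DMSO.

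Changes across all genes moved with transcript length, and the same values are given for the stress genes. Across the 13166 genes, Spearman's rho between length and log2 change was -0.448 for Dex, -0.467 for KLA and -0.181 for DexKLA against DMSO, and 0.494 for DexKLA versus KLA. Across the 34 genes it was -0.404, -0.354, 0.167 and 0.525 for the same comparisons. For the interaction rho was 0.576 across all genes and 0.528 across the 34. EDEM1 and SEL1L, the genes nearest to the threshold for the interaction, are 6099 and 7896 bases long. The part of length in their interaction values was not tested. Genes are not independent replicates, and these are descriptions. SEC61B, the shortest at 558 bases, and EDEM1, at 6099 bases, had log2 changes of 0.40 and -0.48 with KLA, and ATF6, at 7452 bases, 0.26. With each library's smooth trend on length removed, 28 of the 34 genes were negative with Dex, 28 with KLA and 27 with DexKLA, with medians of -0.14, -0.20 and -0.18 against -0.01, -0.02 and -0.03 over all genes. EDEM1 was then no longer called with Dex or with KLA, and 8 genes were called with KLA in place of 5.

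**Figure D5:**
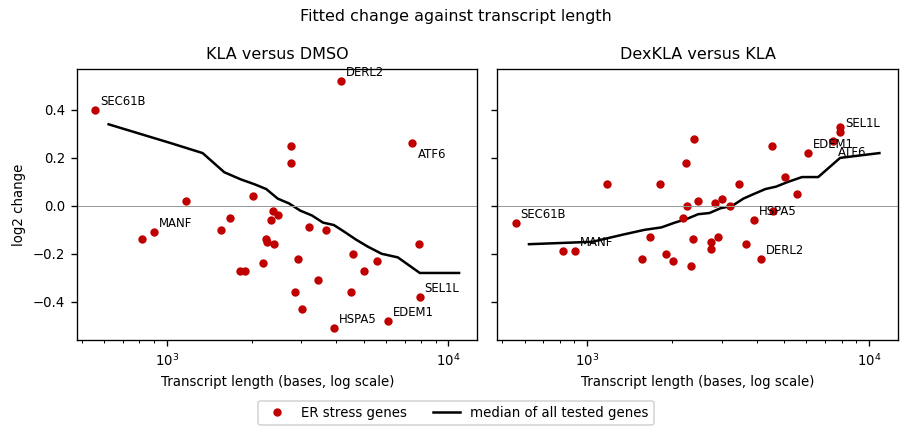
Fitted log2 change against transcript length (bases, log scale) for KLA versus DMSO and DexKLA versus KLA; red points are the 34 tested genes and the black line joins medians of all tested genes in 20 bins of length. Most points in the left panel lie below the line, with DERL2 and ATF6 well above it.

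The genes with an ERSE or ERSE-II match, 9 of the 32 tested genes with a promoter entry, had median log2 changes of -0.13 with Dex, -0.27 with KLA and -0.32 with DexKLA, against 0.01, -0.14 and -0.15 for the 23 without a match. Of the 9, HSPA5 and HERPUD1 were called with KLA, HSPA5 and CALR with DexKLA and 0 with Dex. Of the 23, 3 were called with KLA, 2 with DexKLA and 1 with Dex. Over all genes 13.7%, 4.22% and 2.05% were called with KLA, DexKLA and Dex. EDEM1, SYVN1 and TXNDC5, which also fell, are among the 23. HSP90B1, with 2 ERSE matches, was the 1 of the 9 with positive changes for KLA and DexKLA. The 3 tested genes with a CARE (ATF3, ASNS and HERPUD1) had medians of -0.13, -0.14 and -0.31, against -0.07, -0.16 and -0.17 for the 29 without. No test was made of these differences.

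Other genes of the same pathways were read from further lists. None of the 10 other folding genes (among them P4HB and PPIB) was called in any of the 8 comparisons by edgeR, with 1 at an unadjusted p under 0.05 in each comparison with DMSO. Of all 13166 genes, 2683 with Dex, 4167 with KLA and 2822 with DexKLA had such a p (edgeR). Of 16 other translocon and secretory genes 4 were called, all higher with KLA, where 7.78% of all genes were called higher, and the median of the 16 was 0.18 against -0.02 over all genes. SEC61G, a translocon subunit, changed by 0.75 ± 0.18, adjusted p = 0.0134, SEC11C, a signal peptidase subunit, by 0.65 ± 0.15, adjusted p = 0.0115, SSR2, a subunit of the translocon-associated complex, by 0.34 ± 0.10, adjusted p = 0.0331, and SEC62 by 0.38 ± 0.12, adjusted p = 0.0339 (edgeR). With the length trend removed, SEC61G, SEC11C and SSR2 were no longer called, and SEC62 was.

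Of 29 tested genes of the integrated stress response outside the 36, 1 was called with Dex, against 2.05% of all genes, 4 with KLA, a share close to the 13.7% of all genes, and 1 with DexKLA, against 4.22%. DDIT4 (REDD1), an inhibitor of mTORC1 that glucocorticoids also induce, rose with Dex (log2 0.80 ± 0.14, adjusted p = 0.00444), KLA (0.59 ± 0.14, adjusted p = 0.0133) and DexKLA (0.65 ± 0.14, adjusted p = 0.0165, all edgeR). With KLA the amino acid transporter SLC7A5 (-0.44 ± 0.12, adjusted p = 0.0256) and the tRNA synthetases AARS1 (AARS in the files; -0.41 ± 0.13, adjusted p = 0.0356) and WARS1 (WARS in the files; -0.45 ± 0.14, adjusted p = 0.0398) fell (edgeR). Among 12 other sensors and regulators 1 was called with Dex, 2 with KLA and 1 with DexKLA, all lower, against 0.835%, 5.94% and 1.38% of all genes called lower. CREB3L3 (CREBH), a liver factor cut in the Golgi as ATF6 is, fell with Dex (log2 -0.74 ± 0.19, adjusted p = 0.0492), KLA (-0.72 ± 0.18, adjusted p = 0.015) and DexKLA (-0.88 ± 0.19, adjusted p = 0.0157, all edgeR). MBTPS1, the protease that cuts ATF6, fell with KLA (-0.44 ± 0.11, adjusted p = 0.0167, edgeR).

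All 10 calls with KLA named here were lost without DMSO replicate 1 (adjusted p = 0.0724 to 0.232, edgeR), at log2 0.65 for SEC61G and -0.49 for CREB3L3. The call of SEC61G was also lost without KLA replicate 3 (0.41, adjusted p = 0.0626), as was that of SLC7A5 (-0.31, adjusted p = 0.109), CREB3L3 (-0.60, adjusted p = 0.0525) and MBTPS1 (-0.38, adjusted p = 0.0578, all edgeR). SEC62, SSR2, AARS1 and WARS1 were each lost without 3 to 6 single libraries, among them KLA replicate 3. DDIT4 stayed called with Dex whichever 1 library was left out (log2 0.69 to 0.93), and its DexKLA call was lost without 4 single libraries, DMSO replicates 2 and 3 and DexKLA replicates 1 and 2 (adjusted p up to 0.13, edgeR). The Dex call of CREB3L3 was lost without any 1 of 7 libraries (adjusted p up to 0.228), and its DexKLA call without DMSO replicate 1 or DexKLA replicate 1 (log2 -0.65 and -0.78, edgeR). With the depth class of the libraries as a covariate none of these 10 genes was called with KLA. The Dex and DexKLA calls of CREB3L3 were lost with this covariate as well. Removing the length trend also ended the KLA call of SLC7A5.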

How the data were processed

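Per the submitters' processing notes, Trimmomatic, BWA 0.7.17, HOMER 4.10 and the hg38 genome were used, with no role given for each. The deposited table lists 70507 RefSeq transcripts with values in steps of 0.5, taken as the authors' expected counts; how reads were assigned, and the strand, were not given in the sources used here. Counts were rounded to whole numbers, and a transcript with the highest total was kept per symbol. The 406 transcripts without a symbol (1.71% to 2.55% of a library's total) were left out.

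The test was that of edgeR 4.0.16 under R 4.3.3 (with limma 3.58.1; files read with the data.table package 1.17.8): filterByExpr with a minimum count of 10, TMM scaling, 1 mean per group over all 12 libraries (8 residual degrees of freedom), and Benjamini-Hochberg adjustment over 13166 genes in each of 8 comparisons. Levels are TMM-scaled CPM. The standard error of a log2 change was its size divided by the square root of F, and 95% intervals follow from it. Scripts were tested on simulated data. Every library's value is given for each gene called in at least 1 comparison and for HSPA5, XBP1, ATF4, ATF3, DDIT3, TRIB3, ASNS and HERPUD1. MANF, HSP90B1 and other genes given with tests were chosen after their values were seen. Up to 4 called genes are named per pathway list and comparison, where the plan allowed 3. The genes, the lists and the tests were chosen with earlier results of these data known. The lists cover 6 roles of the 36 genes, other folding, degradation, translocon, integrated stress response and sensor genes, hepatocyte markers and markers of other liver cells; the values of 1 gene of the degradation list are not reported here.

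Alternatives were the size factors of DESeq2 1.42.0, library size alone, no filter, a stricter filter (50 reads in 3 libraries), blocking by replicate number, the longest transcript, the length trend removed (loess span 0.3), depth class as a covariate, thinning to the shallowest library, 2 groups alone, the DESeq2 test and leaving out each library in turn; these were extended to the called genes of the other lists after seeing the data. Replicates of a group differed by more than sampling noise (lowest chi-square divided by its degrees of freedom 1.92).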

Additional observations from a re-analysis of the deposited data

How the results depend on the processing

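No fitted change of a called gene changed sign under any alternative, and counts of calls moved. Counts of called genes among the 34 were, scaling by library size alone, 3 with Dex, 10 with KLA, 2 for the interaction, 0 for the mean Dex effect and 1 for the mean KLA effect; that scaling moved the median of all genes to -0.11 (Dex), -0.13 (KLA) and -0.12 (DexKLA) and lowered the share of calls that were higher to 26.3%, 23.7% and 27.7%, against 59.3%, 56.7% and 67.3%. Without a filter on low counts they were 2 with Dex, 3 for the interaction and 3 for the mean KLA effect. With the depth class of the libraries as a covariate they were 0 with Dex, 0 with KLA and 2 with DexKLA, and over all genes 129, 4 and 173, against 270, 1806 and 556. With the 6 libraries of a comparison alone they were 4 with Dex and 2 with KLA. DESeq2 gave 3 with Dex, 9 with KLA, 3 for the interaction, 2 for the mean Dex effect and 5 for the mean KLA effect. Removing the length trend gave 8 with KLA and 3 for the mean KLA effect, and thinning to the shallowest library gave 3 and 1. With Dex both left 1 call, which was ATF6, higher, in place of EDEM1, lower.

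Leaving out 1 library at a time gave 0 to 3 called genes with Dex, 0 to 9 with KLA, 0 to 6 with DexKLA, 0 to 1 for the mean Dex effect, 0 to 3 for the mean KLA effect and 0 to 2 for the interaction. Over all genes the ranges were 56 to 915 with Dex, 5 to 2363 with KLA, 48 to 1461 with DexKLA, 139 to 317 for the mean Dex effect, 0 to 987 for the mean KLA effect and 0 to 681 for the interaction, 52 to 94 for DexKLA versus KLA and 0 in each fit for DexKLA versus Dex. Without DMSO replicate 1 none of the 34 genes was called with KLA, Dex or DexKLA, and 5, 66 and 48 of all genes were. With the replicate number as a block, 0 were called with Dex, 4 with KLA, 3 with DexKLA and 1 for the mean Dex effect, the lost calls being EDEM1 with Dex, HERPUD1 with KLA and TXNDC5 with DexKLA. Same-numbered libraries did not deviate together (correlations -0.31 to 0.172, 1 of 18 over 0.1). These values gave no sign of pairing by number, and they cannot exclude it, since other differences between libraries could hide it. Over all genes the block gave 134, 1360 and 325 calls with Dex, KLA and DexKLA, and the other counts over all genes that moved by more than 1.5 times were 909 with Dex, 987 with DexKLA, 204 for DexKLA versus KLA, 12 for DexKLA versus Dex, 312 for the mean Dex effect, 663 for the mean KLA effect and 1040 for the interaction without a filter, 650, 920, 618 and 705 with DESeq2 for Dex, DexKLA, the mean KLA effect and the interaction, 1348 with Dex and 38 for DexKLA versus KLA from 6 libraries, 1064 with KLA and 124 for the mean KLA effect with the length trend removed, 230 for the interaction by library size alone, 49 and 23 for the interaction and the mean KLA effect after thinning, 2 for the mean KLA effect by library size alone, 2 for the interaction with the length trend removed and 0 for the interaction with DESeq2 size factors, with the block or with depth class, against 5. The causes were not tested. ATF3, ERN1, CHAC1 and DERL3 were the genes most limited by depth.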

Other observations

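The hepatocyte markers that identify the line were not all level across the groups. AFP, the fetal plasma protein typical of hepatoma cells, rose with Dex (log2 1.13 ± 0.15, adjusted p = 0.00019), KLA (0.51 ± 0.15, adjusted p = 0.0304) and DexKLA (1.24 ± 0.15, adjusted p = 7.49e-05, all edgeR), and DexKLA exceeded KLA (0.72 ± 0.15, adjusted p = 0.0203, edgeR). FGB, the fibrinogen beta chain, fell with Dex (log2 -0.58 ± 0.11, adjusted p = 0.00635) and DexKLA (-0.53 ± 0.11, adjusted p = 0.0109, edgeR), and was lower in DexKLA than in KLA (-0.50 ± 0.11, adjusted p = 0.025, edgeR). HNF4A, a liver transcription factor (-0.38 ± 0.10, adjusted p = 0.0226), and APOB, the secreted apolipoprotein (-0.70 ± 0.20, adjusted p = 0.025), fell with KLA (edgeR). Leaving out 1 library at a time kept the AFP calls with Dex and DexKLA, while its KLA call and those of HNF4A and APOB were lost without DMSO replicate 1, DMSO replicate 3 or KLA replicate 3, that of AFP also without any other DMSO or KLA library. The FGB call with Dex was lost without DMSO replicate 3 or Dex replicate 3 (adjusted p up to 0.0565), and that with DexKLA without DMSO replicate 1 or 3 (up to 0.0795), and both differences between DexKLA and KLA without any 1 of 5 libraries (up to 0.137 for AFP and 0.0903 for FGB, all edgeR). With the depth class of the libraries as a covariate the KLA calls of AFP, HNF4A and APOB were lost. The FGB call with DexKLA and both differences between DexKLA and KLA were lost with it as well. The HNF4A call also ended with the length trend removed. Of the 9 markers 2 were called with Dex, 3 with KLA and 2 with DexKLA, against 2.05%, 13.7% and 4.22% of all genes. The other 5 of the 9 markers (ALB, APOA1, TTR, SERPINA1 and TF) were not called, and none of the 3 tested markers of other liver cells was called in any comparison.

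SEL1L was counted for 2 transcripts. The short one (1647 bases) had a ratio of mean CPM against DMSO of -0.48 with Dex, -0.76 with KLA and -0.31 with DexKLA on the log2 scale. The long one (7896 bases), used above, had -0.31, -0.38 and -0.06. No test was made of this difference.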
